A study of Mus musculus with 13 samples.

Results

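Th17 cells expanded from STAT5 tetramer-deficient (DKI) mice were compared with monocytes and with antigen-presenting cells of monocyte origin (APCs), both sorted from the spinal cord of DKI mice. The comparison sets a T cell identity against a myeloid identity within 1 genotype, and covers 4 of the 13 libraries of the study: 2 of DKI Th17 cells, 1 of spinal cord monocytes and 1 of spinal cord APCs. Genes were kept where RPKM (reads per kilobase of gene, scaled to the total of assigned reads) was at least 5 in at least 2 of these 4 libraries. Of 21073 genes in the table, 9219 passed: 6169 at the minimum in all 4 libraries, 1860 through the 2 Th17 libraries only, 664 through the 2 myeloid libraries only and 526 in other ways. A gene that passed through 1 class alone had to differ, so counts over genes that passed are descriptions. By second-highest RPKM, Tnfaip8l1 and Traj52 lay just inside the minimum (5.001 each), and Traj30 (4.998) and Gapdh-ps15 (4.995) just outside. A minimum of 1 would have kept 11377 genes and a minimum of 10 would have kept 7374. All levels are log2(RPKM + 1), a measure per gene length, and differences are Th17 minus myeloid on that scale.

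The study immunized C57BL/6J mice with a myelin oligodendrocyte glycoprotein peptide in complete Freund's adjuvant. That protocol brings on experimental autoimmune encephalomyelitis (EAE), the mouse disease that stands in for multiple sclerosis. The myeloid donors were DKI mice that also received pertussis toxin, and their spinal cord monocytes and APCs were sorted on day 14. The Th17 donors were DKI mice immunized, per the series' design text, without pertussis toxin. Their spleen and lymph node cells were taken on day 14, cultured with the peptide in Th17-polarizing conditions, and sorted as CD4+ T cells 3 days later. The other libraries are Th17 cells of wild-type mice (2), DKI Th17 cells expanded without (3) or with (3) added CCL17, and DKI bone marrow monocytes (1). Both sides of the comparison carry the DKI genotype, so it holds no wild-type control, and mouse age and any pooling are not given in the sources used here. Cell class, organ, culture against direct sorting, and pertussis toxin differ together between the sides and cannot be told apart. In bulk RNA, fewer cells of a type and less RNA per cell also cannot be told apart.

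Th17 cells are CD4+ helper T cells that make IL-17 and GM-CSF (encoded by Csf2), and in EAE they meet myelin antigen on myeloid cells inside the spinal cord. Monocytes that enter the cord turn into inflammatory APCs, which present peptide on MHC class II and answer T cell cytokines with IL-1 and chemokines of their own. STAT5 carries signals from receptors of both sides, among them those for IL-2 on T cells and GM-CSF on myeloid cells.

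Promoter windows are shown first for 5 genes: the signature cytokine Il17a, the T cell receptor complex gene Cd3d, the chemokine receptor Ccr4 and its ligand Ccl17, on which the study turns, and Trem2, a lipid-sensing receptor of macrophages and microglia. The windows run from 250 bases before to 50 bases after the start site, from RefSeq on GRCm38.p6, which is the mm10 build that the submitters' processing notes name. Il17a lies at chr1:20730655-20730954 (plus strand), Cd3d at chr9:44981536-44981835 (plus), Ccr4 at chr9:114496495-114496794 (minus), Ccl17 at chr8:94810203-94810502 (plus) and Trem2 at chr17:48346151-48346450 (plus). Capitals mark motif matches. They are an AP-1 motif (TGANTCA) at -244 in Il17a, -143 in Ccr4 and -9 in Trem2, a STAT motif (TTCNNNGAA) at -197 in Cd3d and -99 in Ccl17, and a C/EBP motif (TTGCNNAAT) at 23 after the Trem2 start.
Il17a: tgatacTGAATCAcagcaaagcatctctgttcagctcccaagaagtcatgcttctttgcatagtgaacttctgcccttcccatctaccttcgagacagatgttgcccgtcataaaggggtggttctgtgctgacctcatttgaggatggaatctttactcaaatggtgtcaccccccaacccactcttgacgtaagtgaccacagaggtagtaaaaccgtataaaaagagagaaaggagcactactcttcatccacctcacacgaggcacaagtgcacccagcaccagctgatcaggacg
Cd3d: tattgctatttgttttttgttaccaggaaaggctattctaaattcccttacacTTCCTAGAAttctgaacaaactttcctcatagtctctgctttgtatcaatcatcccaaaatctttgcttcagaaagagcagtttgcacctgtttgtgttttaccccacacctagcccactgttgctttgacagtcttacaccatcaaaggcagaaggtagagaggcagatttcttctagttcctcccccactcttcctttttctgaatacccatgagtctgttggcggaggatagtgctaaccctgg
Ccr4: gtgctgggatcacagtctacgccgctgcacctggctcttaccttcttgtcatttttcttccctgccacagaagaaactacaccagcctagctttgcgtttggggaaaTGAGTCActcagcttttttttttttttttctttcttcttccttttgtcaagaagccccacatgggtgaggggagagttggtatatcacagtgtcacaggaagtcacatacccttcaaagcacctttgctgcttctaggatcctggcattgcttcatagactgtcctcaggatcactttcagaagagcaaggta
Ccl17: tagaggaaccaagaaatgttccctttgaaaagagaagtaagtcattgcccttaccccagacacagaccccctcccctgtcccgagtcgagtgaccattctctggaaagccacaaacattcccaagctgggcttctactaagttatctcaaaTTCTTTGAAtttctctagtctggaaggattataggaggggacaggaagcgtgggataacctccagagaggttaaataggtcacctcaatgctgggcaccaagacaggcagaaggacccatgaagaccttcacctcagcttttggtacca
Trem2: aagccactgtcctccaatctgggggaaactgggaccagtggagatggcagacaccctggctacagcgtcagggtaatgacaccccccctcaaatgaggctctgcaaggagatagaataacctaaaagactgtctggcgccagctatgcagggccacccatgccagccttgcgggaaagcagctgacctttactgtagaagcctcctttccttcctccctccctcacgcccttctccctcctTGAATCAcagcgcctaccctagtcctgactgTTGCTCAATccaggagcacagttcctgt
Motifs were read on both strands, and none of the matches shown overlap. A match describes letters only, and no binding was measured.

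AP-1 is a dimer of Fos, Jun and related proteins. Fos itself was among the genes with the widest separation between the sides (levels of 1.57 and 1.70 in Th17 replicates 1 and 2, 10.91 in monocytes and 10.74 in APCs). Not all genes of the family followed it: Batf (7.32, 6.87, 4.50 and 4.22) and Batf3 (5.52, 5.68, 3.19 and 3.10) were on the Th17 side. The AP-1 motif lay in 4.74% of 738 promoter windows of genes on the Th17 side, in 10.8% of 710 windows of genes on the myeloid side, in 5.18% of 9410 windows of all tested genes and in 7.81% of all 32851 windows in the reference table. The STAT motif was held by 9.35% of Th17-side windows, 7.32% of myeloid-side windows and 6.81% of windows of tested genes (8.3% of all windows). For the C/EBP motif the shares were 1.36%, 2.82% and 1.77% (2.4% of all). The PU.1 core (GAGGAAGT) lay in 3.25%, 5.49% and 3.54% (3.2% of all), and the RUNX motif (TGTGGTT) in 6.37%, 4.37% and 3.87% (5.27% of all). The interferon-stimulated response element (ISRE) lay in 3.25%, 5.92% and 3.41% (3.44% of all). The general ETS core (CCGGAAGT), which is common in promoters of broadly expressed genes, was held by 3.52% of Th17-side and 1.69% of myeloid-side windows, both below the 9.25% of tested genes (3.89% of all). The E-box (CACGTG) was held by 7.05% and 10.4% of the windows of the sides and 10.4% of those of tested genes (7.15% of all). These shares are descriptions over windows, and several windows can belong to 1 gene. A link between the Fos levels and the AP-1 shares was not tested.

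The libraries held an estimated 18000000 and 20000000 reads assigned to genes for the Th17 replicates, 26400000 for the monocytes and 24200000 for the APCs (12500000 for the smallest and 31700000 for the largest of all 13). The T cell and myeloid parts of the labels fitted the identity markers. Several genes of Th17 cells were lower in Th17 replicate 2 than in replicate 1. The difference was 2.81 for Il17a, 3.10 for Il17f, 2.44 for Ccr6, 1.65 for Il23r and 1.32 for Rora, against 0.04 for Stat3. In replicate 2 Ifng lay above Il17a per length. The 22 T cell identity genes summed to RPKM of 5050 and 4520 in the Th17 replicates, 47.9 in monocytes and 50.7 in APCs, and the 24 monocyte and macrophage identity genes to 293, 550, 22600 and 20800 in the same order. T cell genes were present in both cord libraries at a low and even level: the median of the 22 genes was 1.0% of the Th17 RPKM in monocytes and 1.01% in APCs, and over both libraries the genes ranged from 0.453% (Cd27) to 1.43% (Cd28), against a median of 0.0162% in bone marrow monocytes. Myeloid identity genes had a median of 0.209% and 0.434% of the cord RPKM in Th17 replicates 1 and 2. In the CCL17 experiment they were at 6.69% to 12% in all 6 DKI Th17 libraries. Counts over the other 8 Th17 libraries below include these 6. Neutrophil markers (11 genes) summed to 865 in monocytes and 1160 in APCs against 4.62 and 9.13 in Th17 cells. Of the 11 genes 8 passed the RPKM minimum, and all 8 were on the myeloid side (7.59% of all tested genes were). The median level of the 11 was 3.82 in monocytes and 5.18 in APCs. The granule gene Camp was at 3.82 and 4.98 in the same order, while the defining Ly6g was at 0.63 and 1.59. Microglia markers (10 genes) summed to 203 in monocytes, 599 in APCs and 57.7 in bone marrow monocytes, with Tmem119 at 4.74 and 6.40 in the cord libraries. Regulatory T cell markers (6 genes), which CD4+ cells can include, summed to 1010 and 668 in the Th17 libraries and 20.4 and 22.2 in the cord libraries. In Th17 cells most of that sum was Il2ra (levels of 8.66 and 8.32) and Ctla4 (8.77 and 7.64), with Foxp3 at 4.85 and 4.47. Conventional dendritic cell markers (9 genes) summed to 122 and 190 in the Th17 replicates, 43.1 in monocytes and 167 in APCs. In Th17 cells most of that dendritic cell sum was Ccr7, at levels of 6.66 and 7.23. The median levels of the 9 genes were 1.06 and 0.92 in Th17 cells, 1.66 in monocytes and 2.98 in APCs. B cell markers (9 genes) summed to 2.93 to 16.7 in the 4 libraries, and CD8 T and NK cell markers (7 genes) to 1.03 to 10.7. The part of these other cells in the results below was not tested.

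**Figure D1:**
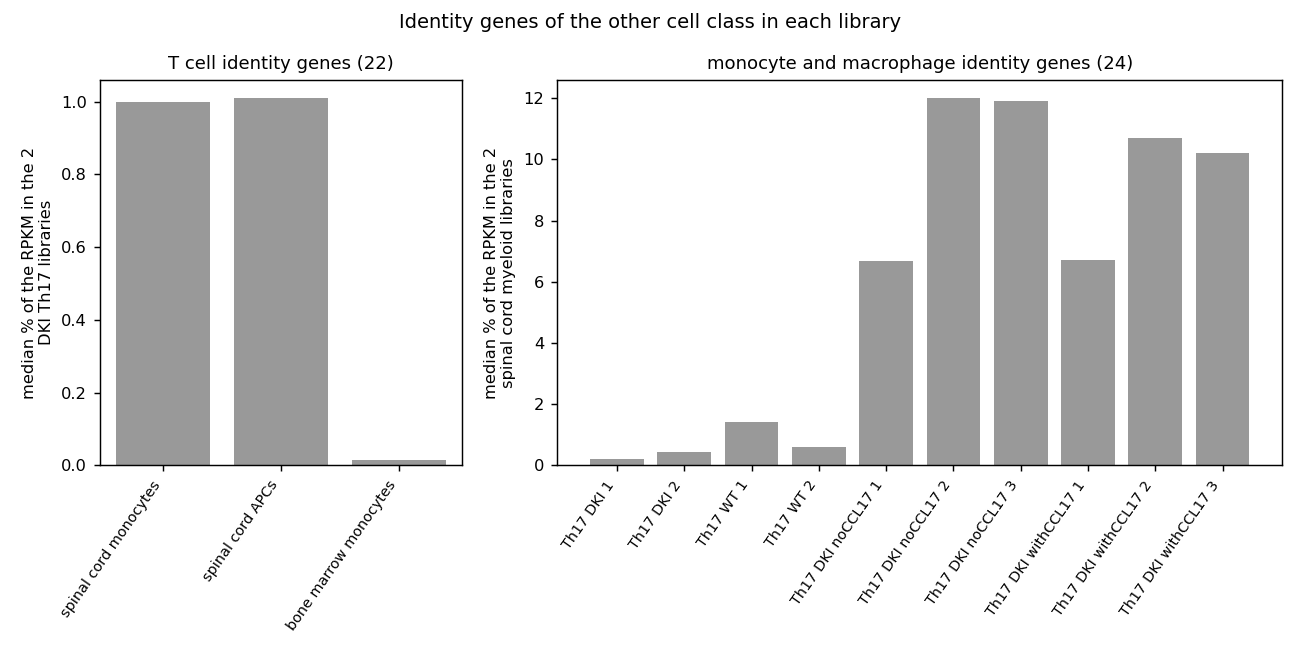
Identity genes of the other class in each library: bars give the median RPKM of 22 T cell genes in the myeloid libraries as a percent of the mean of the 2 DKI Th17 libraries (left), and of 24 monocyte and macrophage genes in the Th17 libraries as a percent of the mean of the 2 spinal cord libraries (right). T cell genes stood at 1.0% and 1.01% in the cord libraries, and the 2 DKI Th17 libraries compared here had the lowest myeloid medians (0.209% and 0.434%).

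Most genes differed between the classes. With limma and Benjamini-Hochberg adjustment over the 9219 genes, 5529 were higher in Th17 cells (60.0% of those tested) and 1585 were higher in the myeloid libraries (17.2%) at an adjusted p under 0.05. The median difference of all tested genes was 0.75, so that a gene near 0.75 is a typical gene of this comparison. When each library was centred on its median gene, the median difference was 0.13 and the calls were 3081 higher in Th17 cells and 2512 higher in myeloid cells, and quantile normalization gave 3301 and 2256. Genes described below as level therefore lie under the typical gene. After centring, Tgfb1, Cd80, Pkm, Srgn, Myd88, H2-Oa and Sdhb were called higher in myeloid cells, while Ccr7, Tgfbr2, Lcp2 and Stat3 were no longer called higher in Th17 cells. A stricter rule asked every library of 1 class to lie at least 4-fold (2 on the log2 scale) above every library of the other. By this rule 847 genes (9.19%) were on the Th17 side and 700 (7.59%) on the myeloid side, and 54.8% of such genes were Th17-sided. After centring the counts were 480 and 890, with 35.0% Th17-sided, and with quantile normalization 528 and 854 (38.2%). Counts of sided list members below are to be read against the 9.19% and 7.59% of all tested genes. The 2 myeloid libraries are different sorted populations, so the spread in the test includes their difference. No label says that the Th17 replicates came from separate cultures or animals, so the p-values measure only the spread between these libraries.

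**Figure D2:**
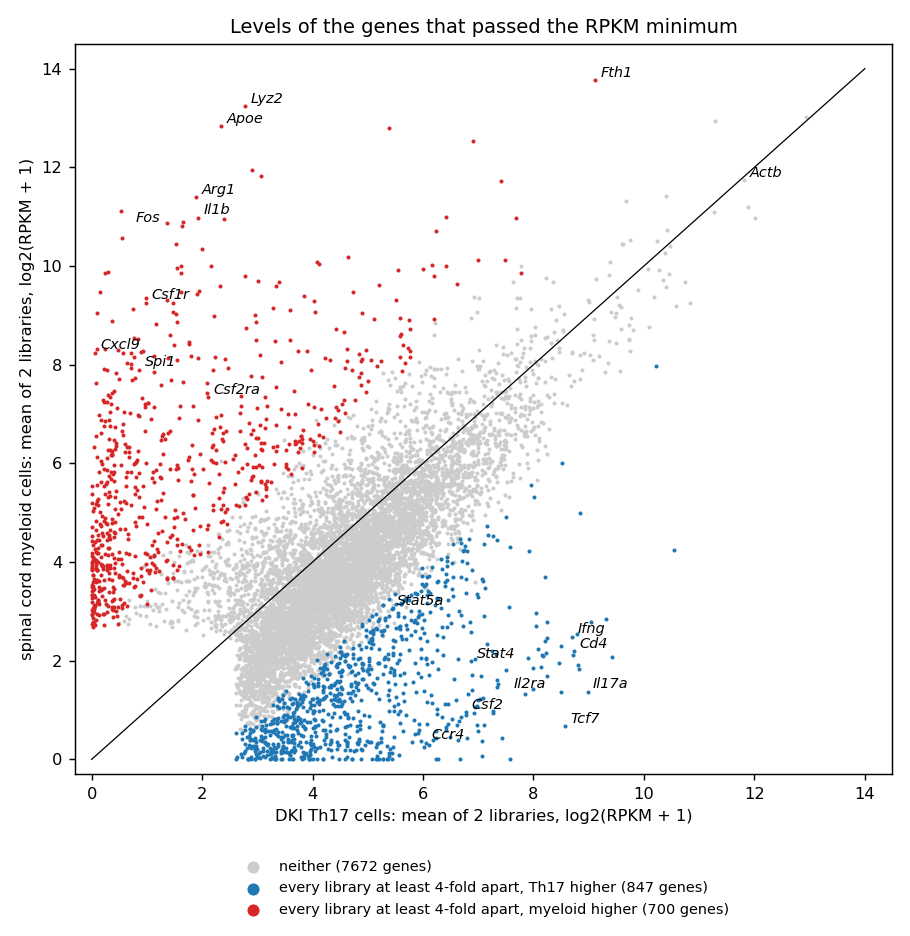
Mean level of each of 9219 genes in the 2 DKI Th17 libraries (horizontal axis) against the mean in the 2 spinal cord myeloid libraries (vertical axis), both as log2(RPKM + 1); the diagonal marks equal levels. The 847 genes on the Th17 side are blue and the 700 on the myeloid side red, and more of the remaining genes lie below the diagonal than above it.

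The widest gaps on the Th17 side belonged to T cell lineage genes. Tcf7, a transcription factor of naive and memory T cells, was at 8.08 and 9.05 in Th17 replicates 1 and 2, 0.66 in monocytes and 0.68 in APCs. Il2ra, the high-affinity chain of the IL-2 receptor, was at 8.66, 8.32, 1.09 and 1.64 in the same order. They were followed by Gimap3, Cd3d, Cd4, Lck, Cd3g, Lat, Cd2, Gimap4, Satb1 and Il17a, whose nearest libraries lay 6.08 to 6.63 apart. On the myeloid side the gap was widest for Saa3, an acute-phase protein gene, at 0.60, 0.45, 11.13 and 11.09. Lysozyme (Lyz2) was at 2.10, 3.46, 13.18 and 13.30, and the lipid carrier gene Apoe at 1.86, 2.81, 12.30 and 13.36. Chil3, Cxcl2, Fos, Arg1, C1qc, C1qb, Cd14, C1qa and Tgfbi followed. These 24 genes were chosen by that gap.

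A total of 122 textbook combinations of a ligand with a receptor chain were read out, formed from 77 ligand genes and 77 receptor chain genes. Of the ligands, 58 passed the RPKM minimum. By the 4-fold rule 15 were on the Th17 side and 24 on the myeloid side, and 38 were on neither. Over all tested genes 9.19% were on the Th17 side and 7.59% on the myeloid side. Of the 77 receptor chains 63 passed. Over all 77, 26 were on the Th17 side, 15 on the myeloid side and 36 on neither. The 26 include Il23r, which did not pass the minimum. Taking expression as RPKM of at least 5 in both libraries of a class, 18 ligands and 27 receptor chains were expressed by both classes, and 20 ligands and 14 chains by neither. The 2 genes lay on opposite sides in 19 combinations: 9 had the ligand on the Th17 side and the chain on the myeloid side, and 10 the reverse. In 8 others they lay on the same side, 4 Th17 and 4 myeloid.

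GM-CSF and its receptor were split between the classes. Csf2 was at 7.26 and 6.30 in Th17 replicates 1 and 2, 0.81 in monocytes and 1.10 in APCs. That is 122-fold in RPKM, with a difference of 5.83 (SE 0.34, limma adjusted p = 0.000113). The specific receptor chain Csf2ra ran the other way, at 2.37, 1.84, 7.58 and 7.09 (difference -5.23, SE 0.26, adjusted p = 7.4e-05). Its signalling chain Csf2rb was at 0.89, 2.31, 7.31 and 7.02. The sister gene Csf2rb2, the chain that pairs with the IL-3 receptor in mice, was at 0.55, 1.38, 6.67 and 6.64, and since these neighbours are near-identical the split of reads between them is uncertain. Il3 itself was at 3.10, 3.42, 0.00 and 0.07, so its ligand was on the Th17 side. The third chain, Il3ra, was expressed by both classes and higher in the myeloid libraries (4.47, 3.91, 5.48 and 5.54). Csf2 at 0.823% of the Th17 RPKM in the cord libraries lay within the 0.453% to 1.43% of the T cell identity genes.

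The other Th17 ligands with a myeloid receptor chain were IL-13 and members of the TNF family. Il13, a cytokine of alternative macrophage activation, was at 4.84, 6.05, 0.21 and 0.30, and Il13ra1 at 0.26, 0.51, 5.87 and 5.70. Il4ra, which completes that receptor, was present in all 4 libraries and higher in the myeloid ones (5.43, 5.75, 6.71 and 6.54). Cd40lg, the T cell signal that licenses APCs, stood at 6.59, 6.32, 1.28 and 0.98, with a difference of 5.32 (SE 0.19, adjusted p = 2.78e-05). Its receptor Cd40 stood at 0.85, 2.26, 6.10 and 5.72 (difference -4.36, SE 0.47, adjusted p = 0.000679). Each was separated by more than 3 between the nearest libraries.

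Ltb, a subunit of membrane lymphotoxin, was at 7.78, 8.37, 2.10 and 2.35, and its receptor Ltbr was at 0.82, 0.83, 5.57 and 5.32. Lta, which pairs with Ltb or acts alone on TNF receptors, was at 5.20, 3.97, 0.57 and 0.47, against 4.58, 4.57, 7.26 and 6.80 for Tnfrsf1a. Tnfsf11 (RANKL), which drives osteoclast formation and myeloid survival, was at 6.19, 4.84, 1.18 and 1.35, and its receptor Tnfrsf11a (RANK) at 0.15, 0.62, 3.32 and 3.48. In these combinations the Th17 libraries were at the high end for the ligand and at the low end for the chain.

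The IL-17 genes were on the Th17 side without a one-sided receptor. Il17a was at 10.38 and 7.57 in the Th17 replicates, 1.49 in monocytes and 1.25 in APCs (difference 7.60, SE 0.87, adjusted p = 0.000811), and Il17f at 8.61, 5.51, 0.13 and 0.00. Both were higher in replicate 1, by 2.81 for Il17a and 3.10 for Il17f, but even replicate 2 lay 6.08 and 5.37 above the nearest myeloid library. The shared receptor chain Il17ra was near level across the libraries at 5.65, 5.94, 5.57 and 5.15, a difference of 0.44 (SE 0.21, adjusted p = 0.10). The partner chain Il17rc did not pass the minimum (1.62, 0.56, 0.34 and 0.27). Il22 was on the Th17 side (4.26, 3.33, 0.23 and 0.29), and its specific chain Il22ra1 was at 0.00 to 0.01 in all 4.

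Interferon gamma was also on the Th17 side. Ifng was at 8.60 and 8.80 in Th17 cells, 2.34 in monocytes and 2.61 in APCs, 90.8-fold in RPKM, with a difference of 6.23 (SE 0.17, adjusted p = 1.91e-05). Its receptor chains pointed in opposite directions. The ligand-binding Ifngr1 was higher in Th17 cells (8.02, 8.57, 6.59 and 6.78, adjusted p = 0.00171), and the signalling chain Ifngr2 was higher in myeloid cells (4.12, 4.48, 6.37 and 6.28, adjusted p = 0.000365). The interferon-inducible chemokines Cxcl9, Cxcl10 and Cxcl11 were on the myeloid side, as described next. Of the 25 genes of the interferon response list, which all passed, 11 were called higher in myeloid cells (17.2% of all tested genes were), 1 in Th17 cells (60.0% of all) and 13 were not called, with a list median of -0.80.

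The IL-1 genes were on the myeloid side and a gene of their receptor was on the Th17 side. Il1b was at 1.41 and 2.44 in the Th17 replicates, 11.09 in monocytes and 10.87 in APCs, 663-fold in RPKM (difference -9.05, SE 0.35, adjusted p = 3.71e-05). Il1a was at 0.64, 0.83, 7.82 and 7.56. The signalling receptor Il1r1, through which IL-1 sustains Th17 cells, was at 5.32, 4.22, 1.55 and 1.57 (difference 3.21, SE 0.37, adjusted p = 0.000813). The decoy receptor Il1r2 was expressed by both classes and was also higher in Th17 cells, at 8.75, 7.40, 5.30 and 6.02. Per length it exceeded Il1r1 in each of the 4 libraries. Its call was lost without the monocytes (adjusted p = 0.0522). The antagonist Il1rn, chosen after its values were seen, was myeloid, at 3.41, 2.20, 9.07 and 8.42, and the accessory chain Il1rap did not pass the minimum.

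Il27, a cytokine of activated APCs that restrains Th17 differentiation, was at 0.11, 0.43, 4.29 and 3.46, and its receptor Il27ra at 6.27, 6.26, 0.91 and 1.14. The partner subunit Ebi3 was higher in Th17 cells (6.26, 5.51, 3.75 and 4.10). So the 2 subunit genes of IL-27 were higher in opposite classes, though Ebi3 was expressed by both.

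Of 27 chemokine genes 17 passed. Of these 15 were on the myeloid side (7.59% of all tested genes were) and none on the Th17 side (9.19% of all). The list median was -5.04. The CXCR3 ligand Cxcl9 was at 0.00, 0.12, 8.42 and 8.06, Cxcl10 at 0.81, 2.15, 9.69 and 8.43, and Cxcl11 at 0.00, 0.00, 4.17 and 2.82. Their receptor Cxcr3 was at 3.55, 3.92, 1.03 and 1.19. Cxcl16, a membrane-bound chemokine of APCs, was at 0.91, 2.07, 8.28 and 8.51, and its receptor Cxcr6 at 7.98, 6.67, 2.24 and 2.04. Cxcr6 thus reached a higher level per length than Cxcr3 in both Th17 libraries.

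The neutrophil attractant Cxcl2 showed the widest chemokine gap (1.62, 1.09, 10.91 and 10.85), and its receptor Cxcr2 was low throughout, at 0.19 to 1.39. The CCR2 ligands Ccl2 (0.10, 0.38, 9.15 and 7.49), Ccl7 and Ccl12 were myeloid, while Ccr2 was expressed by both classes and higher in the myeloid libraries (5.30, 4.84, 7.57 and 6.16, adjusted p = 0.0159). That call was lost without Th17 replicate 1 (adjusted p = 0.0533) or replicate 2 (0.10). Ccl3, Ccl4 and Ccl5 were on the same side. Cxcl3 was the exception among the CXCR2 ligands read out, with 5.29 and 3.04 in Th17 cells, 3.93 in monocytes and 3.77 in APCs, so that the classes overlapped. It was called higher in Th17 cells without replicate 2 (1.44, adjusted p = 0.00547) and lower without replicate 1 (-0.81, adjusted p = 0.0256).

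CCR4, the receptor of the chemokine this study examined, was on the Th17 side. Ccr4 was at 6.23 and 5.87 in the Th17 replicates, 0.30 in monocytes and 0.37 in APCs (difference 5.72, SE 0.18, adjusted p = 2.35e-05), and it lay between 5.64 and 6.63 in the other 8 Th17 libraries. Its ligand Ccl17 did not pass the minimum, because only the APC library reached it: 0.62, 0.36, 1.41 and 3.79. Ccl22, the second CCR4 ligand, was at 2.34, 5.38, 2.03 and 6.31, a difference of -0.31 with an SE of 1.60 (adjusted p = 0.867). It was high in Th17 replicate 2 and in APCs and low in the other 2 libraries, so neither class was uniform. Other T cell homing receptors were on the Th17 side as well. Ccr6, a receptor of Th17 cells, was at 5.24, 2.80, 0.08 and 0.45, Ccr8 at 5.51, 4.15, 1.0 and 0.96, and Cxcr5 at 3.52, 3.35, 0.19 and 0.65. Ccl20, the ligand of CCR6, did not pass the minimum and was higher in Th17 cells (1.55, 2.09, 0.13 and 0.07).

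Ccr7, the lymph node homing receptor, was at 6.66 and 7.23 in Th17 cells, 1.67 in monocytes and 5.53 in APCs (difference 3.35, SE 1.19, adjusted p = 0.0452), and the call was lost without Th17 replicate 1 (adjusted p = 0.134) or replicate 2 (0.189). Cxcr4 was higher in myeloid cells, at 5.99, 5.55, 8.83 and 8.61.

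Receptor chains for IL-12, IL-23 and IL-18 were on the Th17 side, while the subunit genes of IL-12 and IL-23 did not pass the minimum. Il12rb2 was at 7.25, 7.24, 2.03 and 2.35, Il12rb1 at 6.50, 5.75, 3.35 and 3.38, and Il18r1 at 6.18, 5.48, 0.86 and 0.72. Il23r, which keeps Th17 cells pathogenic, was at 4.05, 2.40, 0.18 and 0.09 and failed the minimum through replicate 2. The IL-23 subunit Il23a was at 1.62, 0.52, 1.52 and 1.07, and the shared subunit Il12b at 0.08, 0.35, 0.75 and 2.63. Il12a was at 0.22, 0.62, 2.86 and 2.13. Il18 passed, was expressed in both cord libraries and was higher in myeloid cells (1.80, 1.37, 4.58 and 3.68), but less than 4-fold apart in the nearest libraries.

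Further cytokines were read out with their receptors. Osm, an IL-6 family cytokine of activated myeloid cells, was at 4.60, 4.25, 9.07 and 8.36, and its own chain Osmr was at 0.03 to 0.55. Il6 was expressed by both classes and higher in myeloid cells (3.37, 2.70, 4.39 and 3.86, adjusted p = 0.0174; not called without Th17 replicate 2 or without the monocytes, adjusted p = 0.0834 and 0.117), with Il6ra and Il6st expressed in all 4 libraries. Tnf was expressed by both classes and higher in myeloid cells, at 5.82, 4.73, 8.03 and 7.63, and both of its receptors Tnfrsf1a and Tnfrsf1b were higher there too. Vegfa was at 2.98, 1.49, 8.17 and 8.15. Tgfb1 was near level at 6.62, 6.77, 7.29 and 6.85 (difference -0.38, SE 0.20, adjusted p = 0.135), but its receptor chains were divided, with Tgfbr2 higher in Th17 cells (6.09, 6.46, 4.78 and 5.56; not called without Th17 replicate 2 or without the monocytes, adjusted p = 0.0969 and 0.0749) and Tgfbr1 in myeloid cells (2.51, 2.78, 5.54 and 6.10).

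Il10 was higher in myeloid cells at 1.78, 1.35, 3.72 and 3.50, and so was Il10ra at 2.55, 3.31, 6.89 and 6.45. Among growth factor receptors, Csf1r was at 0.54, 1.41, 9.02 and 9.50 and Csf3r at 0.28, 0.46, 6.12 and 6.21. Csf1, the ligand of Csf1r, was level between the classes, at 4.69, 3.82, 4.12 and 4.34 (difference 0.03, SE 0.30, adjusted p = 0.933).

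IL-2 and its receptor lay together on the Th17 side. Il2 was at 3.89, 2.62, 0.06 and 0.28, Il2ra at 8.66, 8.32, 1.09 and 1.64, and Il2rb at 8.21, 8.27, 2.41 and 2.48. The common chain Il2rg was expressed by both classes and higher in Th17 cells (8.70, 8.67, 7.50 and 7.63, adjusted p = 0.00166). Il21 was at 3.34, 1.69, 0.05 and 0.02 and did not pass, and Il21r was expressed by both (6.46, 6.41, 5.70 and 5.99). The remaining pairs that lay together on the Th17 side were Tnfsf8 with Tnfrsf8 and Cd70 with Cd27.

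Of 18 costimulatory and checkpoint receptors 18 passed, 16 were on the Th17 side and none on the myeloid side (list median 5.29), led by Cd2, Cd5, Cd27 and Tigit. The exceptions were Havcr2 (6.69, 5.66, 5.64 and 5.54) and Lag3 (5.83, 5.47, 3.41 and 5.11), whose differences were not called (adjusted p = 0.165 and 0.0595) but passed without Th17 replicate 2 for Havcr2 (0.00636) and without the APCs for Lag3 (0.00588). Of 17 ligands 13 passed, and of these 4 were on the myeloid side and 1 on the Th17 side. The median of all 17 was -0.76. Cd86 was at 3.00, 3.05, 6.60 and 6.44, against 6.54, 6.25, 1.09 and 1.17 for Cd28 and 8.77, 7.64, 2.35 and 2.45 for Ctla4. Cd274 (PD-L1) was at 4.97, 5.51, 8.34 and 7.80, and its receptor Pdcd1 at 6.07, 5.24, 0.94 and 1.44. Cd80 was near level in the 4 libraries (4.08, 4.04, 4.46 and 4.33, adjusted p = 0.0797), so the 2 ligands of CD28 differed in pattern. The single Th17-sided ligand was Cd70, at 2.96, 3.57, 0.00 and 0.37.

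**Figure D3:**
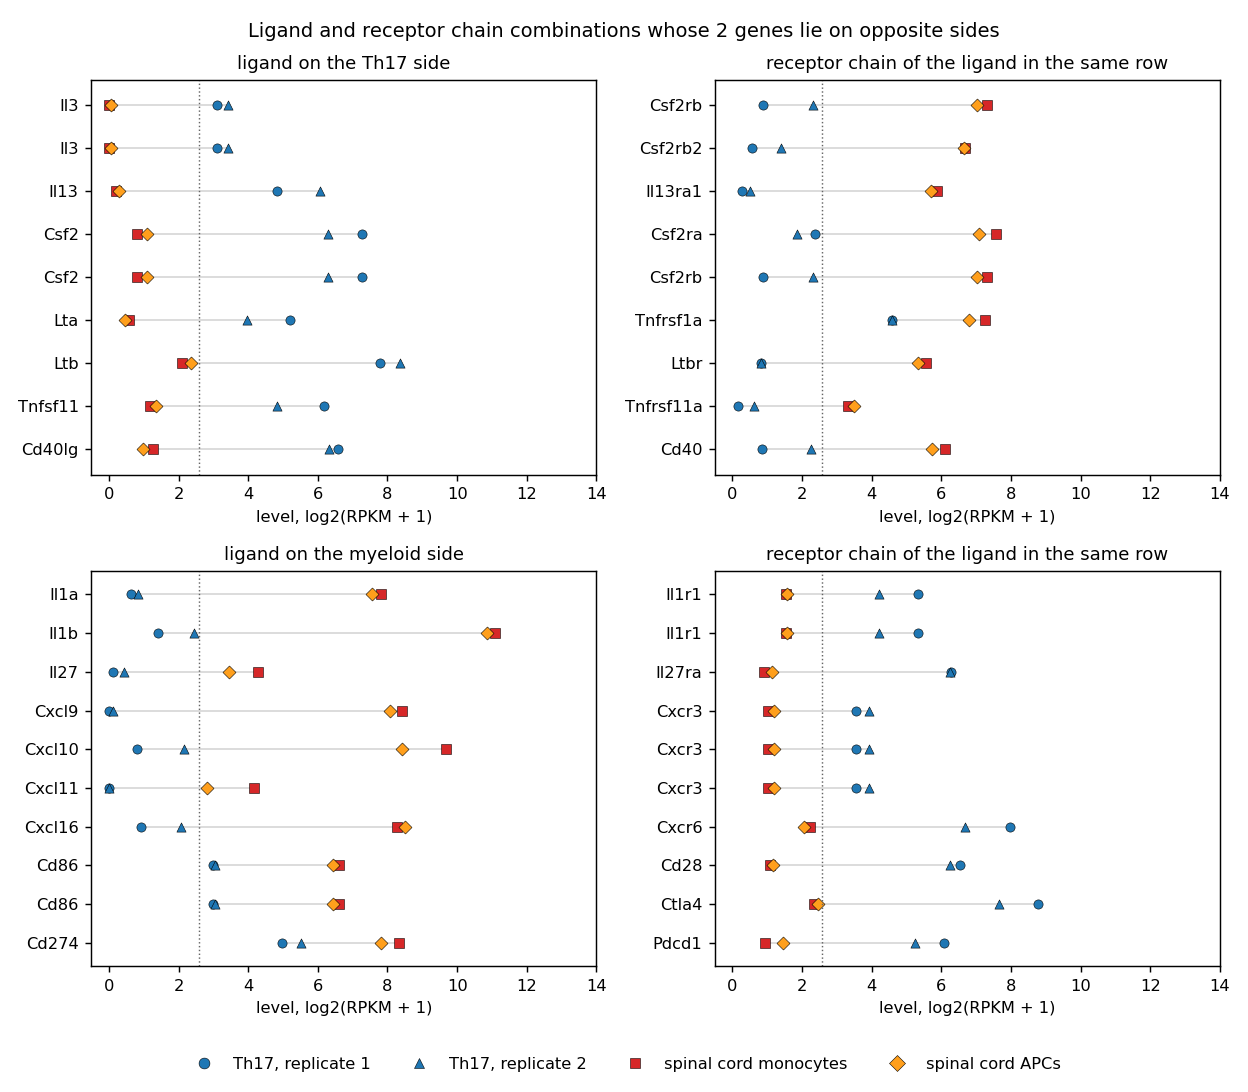
Levels as log2(RPKM + 1) in each of the 4 libraries for the combinations whose ligand (left column) and receptor chain (right column, same row) lie on opposite sides: 9 with the ligand on the Th17 side (top) and 10 with the ligand on the myeloid side (bottom). The dotted line marks RPKM of 5, and in each row every Th17 symbol is separated from every myeloid symbol by at least 2.

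The sided ligands and chains were looked up in the Th17 and bone marrow libraries that had not set the sides. The cord values they were compared with had set the sides, so agreement was favoured in advance. All 15 Th17-side ligands and all 26 Th17-side chains were above both cord libraries in each of the other 8 Th17 libraries. All 15 myeloid-side chains were below both cord libraries in these 8, and so were 22 of the 24 myeloid-side ligands. Ccl2 and Ccl7 were the exceptions, and reached 7.53 and 7.51 in the libraries of the CCL17 experiment. Bone marrow monocytes expressed 13 of the 15 myeloid-side chains but 12 of the 24 myeloid-side ligands at RPKM of at least 5. Of the 15 Th17-side ligands 9 were at or below 1.43% of their Th17 RPKM in the cord libraries, the highest share of any T cell identity gene, and the rest reached 2.82% (Tnfsf11). Of the 26 chains 13 were above it, up to 13.1% (Il12rb1).

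Within the classes, 5 of the 15 Th17-side ligands were higher by at least 1 in replicate 1 (Il17f, Il17a, Tnfsf11, Il2 and Lta) and 1 in replicate 2 (Il13). For the chains the counts were 7 and 0, led by Ccr6 and Il23r. Of the 24 myeloid-side ligands, 4 were higher by at least 1 in monocytes than in APCs (Ccl2, Ccl7, Cxcl11 and Cxcl10), and none was higher by that much in APCs. None of the 15 myeloid-side chains differed by as much as 1 between the 2 cord libraries.

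Of 25 T cell factors, which all passed, 16 were on the Th17 side (9.19% of all tested genes were) and none on the myeloid side (7.59% of all). The list median was 3.14 against 0.75 for all tested genes. After Tcf7, the widest gaps were those of Satb1 (7.18, 7.33, 0.92 and 1.07), Lef1 (6.70, 7.30, 0.66 and 0.50) and Ets1 (7.93, 8.16, 2.60 and 2.82). Rora, a nuclear receptor that takes part in Th17 differentiation, was at 6.11, 4.79, 2.35 and 2.47. Factors that define other helper lineages were on the same side: Tbx21 of Th1 cells (4.92, 5.13, 0.48 and 1.28), Gata3 of Th2 cells (4.68, 4.92, 0.65 and 0.68) and Foxp3 of regulatory T cells (4.85, 4.47, 0.40 and 0.52).

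Some factors known from T cells were not on the Th17 side. Maf was level (5.12, 4.53, 4.72 and 4.76, adjusted p = 0.737), Runx1 and Id3 were higher in myeloid cells (Id3 not without Th17 replicate 2 or without the monocytes, adjusted p = 0.0650 and 0.0804), and Ahr, the aryl hydrocarbon receptor of Th17 cells and macrophages, was at 2.46, 2.07, 3.82 and 3.80 (adjusted p = 0.00106). Batf was on the Th17 side but stayed expressed in the cord libraries (7.32, 6.87, 4.50 and 4.22), at 14.3% of its Th17 RPKM.

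Of 23 myeloid factors 20 passed, 13 were on the myeloid side (7.59% of all tested genes were) and 2 on the Th17 side (9.19% of all). The list median was -2.94. Klf4, a factor of monocytes, was at 0.74, 0.54, 8.07 and 8.01. Spi1, which encodes the lineage factor PU.1, was at 0.32, 1.39, 8.05 and 7.72, and Cebpa at 0.14, 0.36, 6.74 and 6.95. Cebpb was at 4.17, 3.02, 9.49 and 8.71, so this gene was also expressed in Th17 cells. The 2 members on the Th17 side were Batf3 (5.52, 5.68, 3.19 and 3.10) and Epas1 (4.24, 4.74, 2.24 and 2.10), and neither met the 4-fold rule after centring. Hif1a, the factor of the hypoxia response, was near level at 8.15, 8.01, 7.85 and 7.59 (adjusted p = 0.109), and Bhlhe40, which both cell types use for cytokine production, at 8.37, 7.88, 8.24 and 7.98 (adjusted p = 0.951).

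The STAT genes, which carry cytokine receptor signals to DNA, were split by member. Stat4, the factor of IL-12 signalling, was at 6.80, 6.93, 1.42 and 2.56 (difference 4.88, SE 0.37, adjusted p = 0.000252). The genes altered in DKI mice were both on the Th17 side. Stat5a was at 5.42, 5.43, 2.95 and 3.14, 5.77-fold in RPKM, and Stat5b at 5.93, 6.02, 3.75 and 3.68, 5.11-fold. After centring on the median gene neither Stat5a nor Stat5b met the 4-fold rule. A knock-in change leaves the transcript in place, so these levels check nothing about the genotype. Stat3 was higher in Th17 cells by 0.65 (adjusted p = 0.0097), which is close to the 0.75 of the median gene, and was not called without the APCs (adjusted p = 0.0677). Stat2 (5.46, 6.19, 5.81 and 5.35) and Stat6 (6.26, 6.40, 6.18 and 6.04) were not called (adjusted p = 0.468 and 0.231).

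**Figure D4:**
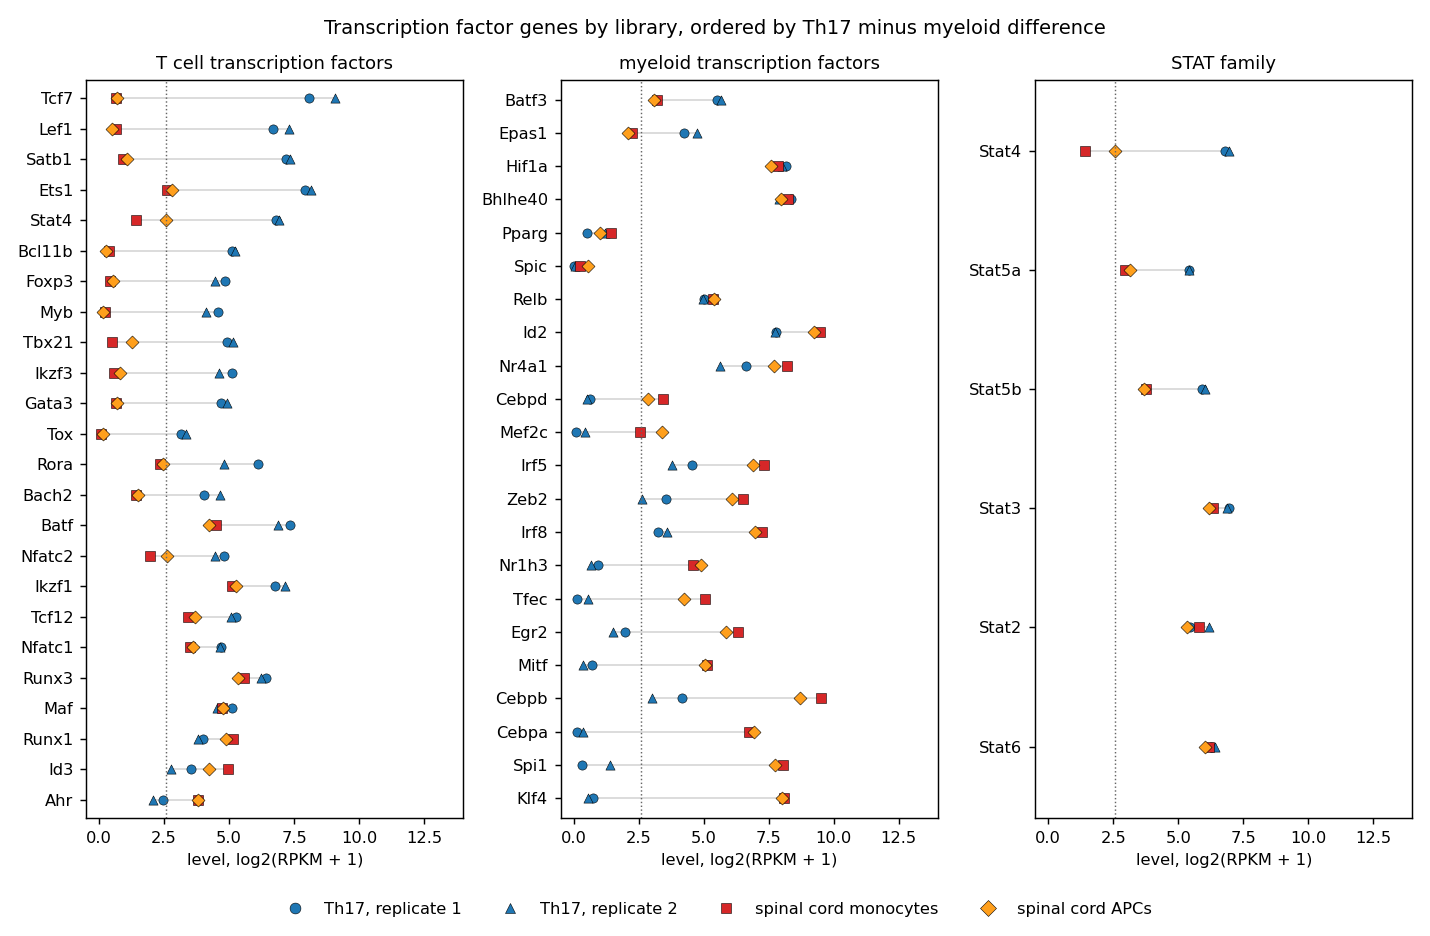
Level as log2(RPKM + 1) in each of the 4 libraries for T cell transcription factors (left), myeloid transcription factors (middle) and STAT genes (right), ordered by the Th17 minus myeloid difference; the dotted line marks RPKM of 5. Tcf7, Lef1 and Satb1 head the T cell panel and Klf4 and Spi1 close the myeloid panel, while Stat2 overlaps between the classes and Stat6 nearly so.

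T cell receptor signalling genes were on the Th17 side in 17 of 20 cases (9.19% of all tested genes were; median 5.62). All 20 passed and were called higher in Th17 cells (60.0% of all tested genes were). The exceptions by the 4-fold rule were members that myeloid cells also use: Lcp2 was at 7.40, 7.26, 6.67 and 6.14 (adjusted p = 0.0538 without Th17 replicate 1 or without the APCs), Rasgrp1 at 5.95, 5.97, 4.47 and 3.90, and Fyn, a Src family kinase, at 6.36, 6.00, 4.23 and 4.01. Cytotoxic granule genes were on the same side for 6 of the 8 members that passed, among them Gzmb (7.52, 6.37, 1.05 and 1.06), Gzma and Prf1. Srgn, the granule proteoglycan gene, was high in both classes (difference -0.77, adjusted p = 0.109, and 0.0251 without the APCs).

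Of 12 MHC class II genes, all of which passed, 9 were on the myeloid side (median -5.58). H2-Ab1 was at 2.53, 3.61, 11.38 and 12.25, and 2 of the 12 were not called. H2-Oa, a subunit of the modulator of peptide loading, overlapped between the classes (4.23, 3.32, 4.20 and 5.74, adjusted p = 0.0993, and 0.0268 without the monocytes). Of 21 Fc, complement and phagocytic receptor genes 18 passed and all 18 were on the myeloid side (median -6.18), with Fcgr3 at 1.15, 1.81, 9.25 and 9.27 and Trem2 at 0.07, 0.06, 7.21 and 8.03. Among 10 complement genes 8 passed and all 8 were on the myeloid side, with C1qa at 0.00, 0.58, 9.20 and 10.56. Microglia also express C1q, Trem2 and class II genes, and the microglia markers were higher in APCs than in monocytes along with them, and their part in these levels was not tested.

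Of 26 innate pattern receptor and adaptor genes 24 passed, 15 were on the myeloid side and none on the Th17 side (median -3.15). Cd14, the endotoxin co-receptor, was at 1.58, 1.45, 10.61 and 10.29, Clec7a (Dectin-1) at 1.04, 2.20, 10.07 and 9.92, and Tlr2 at 1.10, 1.73, 8.74 and 8.48. The adaptor Myd88, which both IL-1 and Toll-like receptors use, was close to level at 5.55, 5.83, 6.33 and 5.60 (adjusted p = 0.395). Lysosome genes that passed (22) were on the myeloid side in 17 cases and on the Th17 side in 1, the cytotoxic cell protease Ctsw (4.59, 4.89, 1.95 and 2.17). Of the 18 protease and matrix genes that passed 14 were on the myeloid side, with fibronectin (Fn1) at 0.78, 0.72, 9.04 and 9.20 and Thbs1 at 1.18, 1.54, 9.73 and 8.90. The integrins were shared out: Itgam was at 1.74, 1.80, 8.41 and 8.41, Itgb3 at 5.61, 5.49, 0.79 and 1.45, and Itga4, which carries both cell types across the blood-brain barrier, was level at 4.60, 5.03, 4.99 and 4.61 (adjusted p = 0.954).

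Of 25 genes for the synthesis of serine, one-carbon units and nucleotides 24 passed. All 24 were called higher in Th17 cells, against 60.0% of all tested genes, and 13 were on the Th17 side, against 9.19% of all (median 2.55). Psat1, an enzyme of serine synthesis, was at 6.96, 6.40, 3.06 and 2.77, the mitochondrial Shmt2 at 7.40, 6.56, 3.22 and 3.47, and Cad, which starts pyrimidine synthesis, at 5.18, 5.23, 1.69 and 2.22. Rrm2, the inducible subunit of ribonucleotide reductase, was at 5.41, 7.15, 1.87 and 1.80.

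Sterol and fatty acid synthesis genes were called higher in Th17 cells in 23 of 26 cases (60.0% of all tested genes were), and 9 were on the Th17 side (9.19% of all; median 1.87). Scd1, a fatty acid desaturase, was at 4.78, 5.25, 0.63 and 0.70, its relative Scd2 at 7.92, 7.93, 4.25 and 4.20, and fatty acid synthase (Fasn) at 5.06, 5.74, 1.54 and 2.01. Lipid uptake, storage and efflux genes had the opposite pattern. Of 18 genes 17 passed, 16 were called higher in myeloid cells (17.2% of all tested genes were) and 7 were on the myeloid side (7.59% of all; median -2.14). Besides Apoe these included Gpnmb (2.08, 2.76, 7.61 and 8.61), the phospholipid transfer gene Pltp (1.03, 1.29, 4.52 and 5.62) and the cholesterol exporter Abca1 (2.41, 2.69, 5.66 and 6.52). All of these were higher in APCs than in monocytes. Lipid synthesis genes and lipid uptake genes thus had medians on opposite sides of the 0.75 of all genes.

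Of 25 glycolysis genes, all of which passed, 10 were called higher in myeloid cells (17.2% of all tested genes were), 5 in Th17 cells (60.0% of all) and 10 in neither (median -0.38). The glucose transporters lay on opposite sides. Slc2a3 (GLUT3) was at 6.98 and 6.79 in Th17 cells, 1.50 in monocytes and 1.90 in APCs, a difference of 5.19 (SE 0.19, adjusted p = 3.23e-05). Slc2a1 (GLUT1) was at 5.06, 4.96, 7.84 and 7.50, a difference of -2.66 (SE 0.18, adjusted p = 0.000164). Hexokinase 3 (Hk3) was at 0.77, 1.06, 7.59 and 7.07 and the activating kinase Pfkfb3 at 4.05, 3.95, 6.48 and 6.45. Later steps were level, as in Pkm, pyruvate kinase, at 8.73, 9.27, 9.37 and 9.19 (adjusted p = 0.317).

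Mitochondrial pathways showed no 4-fold separation in either direction. The tricarboxylic acid cycle (17 genes) had a median of 0.98, fatty acid oxidation (15 genes) of 0.69 and the nuclear genes of the respiratory chain (24 genes) of 0.49, against 0.75 for all tested genes. The respiratory chain median was -0.13 after centring. Sdhb, a subunit of succinate dehydrogenase, was at 6.49, 6.49, 6.49 and 6.53.

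Genes of arginine use were divided between the classes. Arg1 was at 1.34, 2.44, 11.33 and 11.46 (difference -9.51, SE 0.37, adjusted p = 3.69e-05), the inducible nitric oxide synthase Nos2 at 0.47, 0.66, 8.44 and 8.02, and Acod1, which makes itaconate, at 0.23, 1.43, 8.97 and 8.09. Arg1 and Nos2, which compete for arginine, were thus both on the myeloid side in each cord library. The polyamine enzymes were higher in Th17 cells, with Srm at 5.88, 5.91, 3.17 and 3.56, Sms at 3.83, 3.69, 1.24 and 1.42 and Odc1, the step that arginase feeds, at 8.06, 7.74, 5.96 and 5.85. Odc1 was expressed by both classes and was less than 4-fold apart in the nearest libraries.

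Amino acid transporters were split by member. Slc7a5, the large neutral amino acid transporter of activated T cells, was at 7.92, 6.27, 3.64 and 3.60, the glutamine transporter Slc1a5 at 7.25, 6.51, 3.86 and 3.80 and the arginine transporter Slc7a1 at 6.13, 4.89, 2.75 and 2.59. Myeloid cells instead had Slc7a2, the other cationic transporter, at 0.18, 0.29, 6.58 and 6.92, Slc7a8 at 0.08, 0.18, 5.85 and 5.79 and the cystine transporter Slc7a11 at 0.92, 0.67, 4.04 and 4.20.

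Of 15 iron and heme genes 11 passed. Of these 3 were called higher in Th17 cells (60.0% of all tested genes were), 5 in myeloid cells (17.2% of all) and 3 in neither. The transferrin receptor Tfrc was on the Th17 side (6.11, 6.53, 3.04 and 3.11), and ferritin (Fth1, 8.99, 9.26, 13.70 and 13.83), heme oxygenase (Hmox1, 4.21, 3.00, 8.65 and 8.38) and the phagosomal exporter Slc11a1 (1.96, 1.71, 7.13 and 7.19) were on the myeloid side. Prostaglandin and leukotriene genes that passed (12) were on the myeloid side in 7 cases and on the Th17 side in none. Ptgs2 (COX-2) was at 0.29, 1.66, 9.41 and 9.29 and Alox5ap at 0.66, 0.85, 8.80 and 8.30.

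**Figure D5:**
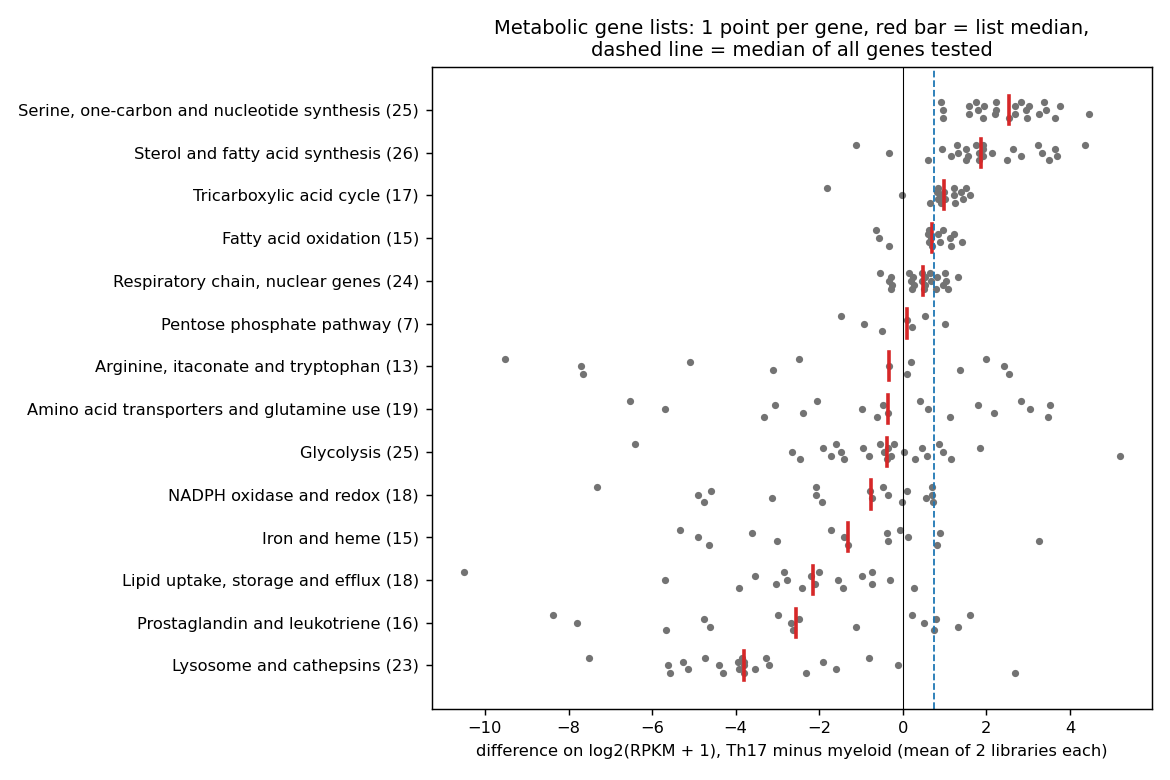
Difference between the means of the 2 DKI Th17 and the 2 spinal cord myeloid libraries on log2(RPKM + 1) for each gene of 14 metabolic lists (grey points, list size in parentheses), with the median of all members shown, whether or not they passed the RPKM minimum (red), and the median of all tested genes (0.75, dashed). Nucleotide and sterol synthesis lie to the right of the dashed line and lysosome, prostaglandin and lipid uptake genes to the left, while the mitochondrial lists lie around it.

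Cell cycle genes were higher in the Th17 libraries, and immediate early genes in the cord libraries. Of 30 cell cycle genes 28 passed, 27 were called higher in Th17 cells (60.0% of all tested genes were) and 21 were on the Th17 side (9.19% of all; median 2.91). Their median level was 4.27 and 5.42 in the Th17 replicates, 1.80 in cord monocytes and 1.81 in APCs. Bone marrow monocytes were at 5.45, so low levels were not shared by all myeloid libraries. Top2a, which untangles chromosomes for mitosis, was at 6.04, 6.68, 2.34 and 2.61, and the G1 cyclin Ccnd2 at 7.15, 7.09, 3.09 and 3.87. Pcna was the member not called (6.14, 7.35, 6.29 and 6.19, adjusted p = 0.287), and it was called without Th17 replicate 1 (0.00600). Immediate early and heat shock genes were on the myeloid side in 12 of 18 cases and on the Th17 side in none (median -4.40). Fosb was at 0.37, 0.18, 7.67 and 8.11 and the inducible heat shock gene Hspa1a at 0.08, 0.10, 9.43 and 8.66, though Hspa1a and Hspa1b are near-identical copies and their separate values are uncertain. The myeloid cells were sorted directly from tissue and the Th17 cells from culture, and this cannot be told apart from the cell class.

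Across all sided genes, 837 of the 847 on the Th17 side (98.8%) were above both cord libraries in each of the other 8 Th17 libraries, and 674 of the 700 on the myeloid side (96.3%) were below both in these 8. The cord values used here, and the DKI Th17 values used next for bone marrow, had set the sides. High shares were therefore favoured in advance, and the same shares over all tested genes were not computed. Bone marrow monocytes were below both DKI Th17 libraries for 737 Th17-side genes (87.0%). They were above both for 586 myeloid-side genes (83.7%), and for the other 114 (16.3%) the bone marrow level lay within or below that of Th17 cells. Arg1 (1.81), Nos2 (0.21), Acod1 (0.53) and Il1a (0.29) were among these 114, while Spi1 (8.01), Klf4 (7.10) and Csf1r (7.91) were high in bone marrow monocytes too.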

How the data were processed

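Expression was measured by mRNA sequencing of 13 mouse libraries, of which 4 enter the comparison. The authors deposited 1 table of log2(RPKM + 1) values per gene. Subread and featureCounts with mm10 are named per the submitters' processing notes, with tool versions and strand setting not given in the sources used here. In the deposited log2 table a gene without reads carries 0.0001, which was set to 0. Of the Entrez gene identifiers 20857 matched a RefSeq symbol and 216 kept the symbol of the table. The column named MDC was assigned to the monocyte-derived APC sample, the only spinal cord sample left once the monocytes were matched. The labels attach a pertussis toxin protocol to every sample, while the series' design text leaves it out for the Th17 donors. Assigned reads were estimated from the steps of low RPKM values of single-transcript genes, of which 73.4% to 78.1% came out within 0.1 of a whole read (20.0% by even spread), so depths are approximate.

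Differences were tested with limma 3.58.1 in R 4.3.3 (empirical Bayes with a mean trend, Benjamini-Hochberg adjustment over all genes that passed) on the 4 libraries, after the filter of RPKM of at least 5 in at least 2 of them, with the deposited pseudocount of 1. The script was tested on simulated data. Summaries used Python 3.11.15, numpy 2.4.6, pandas 2.3.3 and scipy 1.17.1, and figures matplotlib 3.10.9. Promoter windows were matched by Entrez identifier. The text names the 12 genes with the widest gap on each side, all genes of the ligand and receptor combinations, all transcription factor, STAT and marker list genes, and, per other list, up to 4 genes per side with the widest gap and up to 3 with the smallest difference. List medians were taken over all members with values, and the medians recomputed under other settings over the members that passed. The members, the 46 gene lists and the 122 combinations were chosen with earlier results of these data known. A few genes that this rule covers are not reported here.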

Additional observations from a re-analysis of the deposited data

Results flagged for a closer look

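In 6 listed genes both Th17 libraries lay above 1 spinal cord population and not above the other, so that the 2 comparisons pointed in different directions, and the difference between them was not tested. The APCs were the higher cord population in 4 of them. Ccl22, a ligand of CCR4, differed by 1.83 from monocytes and by -2.45 from APCs (Th17 minus cord). Fabp4, a fatty acid carrier, differed by 0.29 from monocytes and by -0.91 from APCs. Pdcd1lg2, which encodes the PD-1 ligand PD-L2, differed by 0.23 and -0.33. Gpx4, which removes lipid peroxides, differed by 0.13 and -0.18. For Actb (-0.16 and 0.31) and Jund (-0.32 and 0.16) the monocytes were higher than Th17 cells and the APCs lower. Each cord population is 1 library, and of these 6 genes only Ccl22 and Fabp4 had a value beyond 0.5 in either direction. Sdhb was picked out by the same comparison but differed by 0.0 from monocytes and by -0.04 from APCs, so that it was level with monocytes at 2 decimals.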

How the results depend on the processing

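No paired analysis was possible because the monocyte and APC libraries carry no replicate numbers shared with the Th17 libraries. Calls by limma numbered 5529 higher in Th17 cells and 1585 higher in myeloid cells. With centring on the median gene they were 3081 and 2512, and with quantile normalization 3301 in Th17 cells. Leaving out 1 library gave 4270 to 5163 and 1311 to 1504. Genes 4-fold apart numbered 847 and 700. They were 317 and 440 with a pseudocount of 5, which compresses low genes (with 9 ligands on the Th17 side), and 480 and 528 on the Th17 side with centring and quantile normalization. With the DKI Th17 libraries expanded without CCL17 in place of the 2 compared here, 423 lay on the myeloid side. The list medians that changed sign were those of conventional dendritic cell markers (-0.47 without the monocytes to 2.13 without the APCs), cytokine receptors (-0.33 centred, -0.27 quantile, -0.68 with the substituted libraries), adhesion genes (-0.26 centred, -0.19 quantile), the respiratory chain (-0.13 centred), the pentose phosphate pathway (-0.51 centred, -0.33 quantile, -0.10 without Th17 replicate 2 to 0.11 without the monocytes, -0.07 substituted) and amino acid transporters (0.34 substituted). Among 195 genes recomputed, 2601 values kept direction and side of the threshold, 43 lost a call, 32 gained one and 44 changed sign, nearly all in genes with a difference near 0. With centring these were Bhlhe40 -0.60, Csf1 -0.59, Cxcl3 -0.30, Havcr2 -0.03, Hif1a -0.25, Il17ra -0.17, Il21r -0.02, Il6st -0.04, Itga4 -0.60, Maf -0.53, Pcna -0.11, Stat2 -0.37 and Stat6 -0.40. With quantile normalization they were Csf1 -0.55, Cxcl3 -0.30, Itga4 -0.48, Maf -0.40, Pkm 0.49 and Stat2 -0.01. With the substituted libraries they were Ccl22 0.60, Ccl7 1.73, Csf1 -0.04, Il17ra -0.18, Il6 0.51, Il6st -0.12, Itga4 -0.06, Sdhb 0.00, Stat2 -0.87, Stat6 -0.08 and Tgfb1 0.04. With 1 library left out in turn, the ranges that crossed 0 were Bhlhe40 -0.23 to 0.26, Ccl22 -2.45 to 1.83, Csf1 -0.40 to 0.46, Cxcl3 -0.81 to 1.44, Itga4 -0.20 to 0.23, Maf -0.21 to 0.38, Myd88 -0.64 to 0.09, Pcna -0.11 to 1.11, Sdhb -0.04 to 0.00 and Stat2 -0.12 to 0.61. The cause was not tested. With a library left out, the lone library of its class is assumed to vary like the other class. The myeloid side has 1 library of each population, and an RPKM table gives no counting error for low genes.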
